A study of Homo sapiens with 8 samples.

Results

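Transcripts of 9 antioxidant target genes of the transcription factor NRF2 were followed in 2 human lung cancer cell lines: NQO1, GCLM, GCLC, TXNRD1, SRXN1, SLC7A11, HMOX1, AKR1B10 and AKR1C1. The genes were taken by symbol, as glutathione, thioredoxin and aldo-keto reductase targets of NRF2, from the 61228 genes listed in each count table. All 9 passed the filter on low counts, as did 21307 genes in all. The lines were H1975 and HCC44, both labelled as wild type in genotype. Each received either the solvent DMSO or ACBI1 at 1 mM in the labels' unit, and cells were kept for 96 hours. That concentration is high for a compound of this kind and its unit could not be checked. ACBI1 joins a ligand for the bromodomains of SMARCA2, SMARCA4 and PBRM1 to one for the ubiquitin ligase VHL, and so sends these parts of the SWI/SNF chromatin remodelling machinery to the proteasome. The 8 libraries form 4 groups of 2, and the labels do not say whether replicates were separate cultures, so p-values measure the spread between these libraries. Each line stands for 1 tumour only.

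NRF2, encoded by NFE2L2, is held low in unstressed cells by KEAP1, which presents it to a CUL3 and RBX1 ubiquitin ligase. Electrophiles and oxidants disable KEAP1, and NRF2 then pairs with a small MAF protein and binds antioxidant response elements, where the repressor BACH1 competes with it. Its targets make glutathione, reduce thioredoxin and peroxiredoxins, detoxify quinones and carbonyls, supply NADPH and handle haem and iron. In lung cancer the pathway is known for activation by mutations of KEAP1 or NFE2L2.

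Gene counts ranged from 62467286 to 70455517 per library. Levels are counts scaled to library size with TMM factors (CPM), given as mean ± SD with n = 2. A gene was called when its adjusted p in edgeR's quasi-likelihood test was under 0.05 over all 21307 genes. All 6 epithelial markers were detected in every library, with a summed level of 2331 to 5393 CPM in H1975 and 940 to 1658 CPM in HCC44. The lung lineage factor NKX2-1 was at 22.5 to 25.9 CPM (group means) in H1975 and at 0.00787 to 0.0159 CPM in HCC44, so the lung label is not borne out by this marker in HCC44. The other lung markers, SFTPB, SFTPC and NAPSA, were low in both lines. Their highest group mean was 1.93 CPM, for NAPSA in H1975 DMSO. The epithelial sum was 5137 to 5393 CPM with DMSO and 2331 to 2808 CPM with ACBI1 in H1975, against 940 to 980 and 1199 to 1658 CPM in HCC44. By group means the HCC44 rise was mainly KRT7 (441 to 936 CPM), with EPCAM, CDH1 and KRT18 also higher. KRT8 went from 217 to 151 CPM there and KRT19 from 40.1 to 37.5 CPM. With DMSO, CDH1 was at 224 CPM in H1975 and 4.24 CPM in HCC44, and EPCAM at 171 and 10.6 CPM. The summed fibroblast markers, nearly all COL1A1, were 48.8 to 71.9 and 25.4 to 30.4 CPM in H1975 and 73.4 to 91.9 and 203 to 406 CPM in HCC44, with DCN at 0 in every library. The 5 immune markers summed to 0.126 to 1.13 CPM, with CD3E at 0 in every library, and the 3 endothelial markers to 0.439 to 4.01 CPM. The part of these shifts in the results was not tested. In bulk libraries a change in the share of cells and a change in RNA per cell cannot be told apart.

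The core of the antioxidant response element was searched as TGACNNNGC on both strands in RefSeq windows of 250 bases before to 50 after each annotated start (GRCh38.p14). Windows were at hand for 6 of the 9 genes, and 2 of these 6, GCLM and TXNRD1, held the core. Of 27305 genes with a window, 16.1% held it, so these letters are common. The windows of NQO1, GCLC, SRXN1 and AKR1C1 held none. The matches before the start are shown for the 2 genes that hold them, and capitals mark the core.
GCLM: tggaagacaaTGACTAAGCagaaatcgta
TXNRD1 first window: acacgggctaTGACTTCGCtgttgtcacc
TXNRD1 second window: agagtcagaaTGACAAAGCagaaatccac
The GCLM stretch is chr1:93909446-93909474 on the plus strand and is partly exonic in GENCODE 29. Its core ends 26 bases before the RefSeq start of this minus-strand gene. The TXNRD1 stretches are chr12:104215670-104215698 on the plus strand, outside the annotated gene, and chr12:104286920-104286948 on the minus strand, within an annotated exon. Their cores end 91 and 94 bases before the 2 starts. The first TXNRD1 window holds another core across its start, which is not shown. GCLM and TXNRD1 rose with ACBI1 in HCC44, as did NQO1 and SRXN1, whose windows held no core. Sequence outside these windows was not searched, so elements farther from a start would be missed. Of 18 tested targets and context genes with the core in a window, 7 rose and 6 fell in HCC44. Of 44 whose windows held none, 9 rose and 12 fell. Over all tested genes, 17.5% rose and 17.4% fell in HCC44. Whether the core bears on the response was not tested. A match describes the letters and is not a bound site.

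The first comparison asked how much of each target the lines carried with DMSO. HCC44 held more AKR1C1, TXNRD1 and SLC7A11 transcript, and H1975 held more HMOX1 and NQO1. The other 4 genes were not called. The 5 of 9 calls (3 higher and 2 lower in HCC44) stand beside 67.9% of all tested genes called between the lines, 31.6% higher and 36.4% lower, so the count is near the background.

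AKR1C1, an aldo-keto reductase that inactivates progesterone and reduces carbonyls, lies at chr10:4963253-4983283 on the plus strand. Its levels were 3.28 and 1.86 CPM in the H1975 DMSO libraries and 24.8 and 27.3 CPM in the HCC44 DMSO libraries. All HCC44 libraries lay far above all H1975 libraries. The fold was 10.1 (log2 fold change 3.34 ± 0.27 SE, adjusted p 2.1e-06). Of 50-base stretches of AKR1C1 transcripts, 28.3% also occur in AKR1C2 transcripts, so reads of the neighbours may be lost or shared. The neighbours AKR1C2 and AKR1C3 differed in the same direction. With DMSO, AKR1C2 was at 0.175 ± 0.038 CPM in H1975 and 12.7 ± 0.015 CPM in HCC44 (6.17 ± 0.29, adjusted p 1.43e-08). AKR1C3 was at 2.02 ± 0.68 and 39.1 ± 4.9 CPM (4.27 ± 0.21, adjusted p 2.42e-08), and its transcripts share 3.61% of stretches with AKR1C2.

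TXNRD1 (chr12:104215779-104350305, plus strand) encodes the cytosolic thioredoxin reductase, a selenoprotein that passes electrons from NADPH to thioredoxin. It was at 281 and 310 CPM in H1975 and at 717 and 867 CPM in HCC44, both with DMSO, a fold of 2.68 (log2 1.42 ± 0.13, adjusted p 1.99e-06). SLC7A11 (chr4:138164097-138242349, minus strand) encodes the cystine importer xCT, which feeds glutathione synthesis. With DMSO it was at 90.0 and 105 CPM in H1975 and at 158 and 187 CPM in HCC44, with no overlap (0.82 ± 0.15, adjusted p 0.000838).

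HMOX1 (chr22:35380361-35394214, plus strand) encodes haem oxygenase 1, which opens haem to biliverdin, iron and carbon monoxide and is a classic target of repression by BACH1. In DMSO libraries it was at 106 and 93.1 CPM in H1975 and at 22.0 and 17.6 CPM in HCC44, so HCC44 carried 0.199 of the H1975 level (-2.33 ± 0.25, adjusted p 7.41e-05). BACH1 itself was at 31.2 ± 0.51 CPM in H1975 and 110 ± 8.4 CPM in HCC44 (1.81 ± 0.1, adjusted p 4.39e-08). Whether this difference in BACH1 bears on HMOX1 was not tested. NQO1 (chr16:69706996-69726951, minus strand) encodes a quinone reductase. It was at 253 and 276 CPM in H1975 against 178 and 200 CPM in HCC44, with no overlap (-0.48 ± 0.12, adjusted p 0.00324).

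The subunits of glutamate-cysteine ligase, which makes the first step of glutathione, stood close in both lines. GCLC, the catalytic subunit (chr6:53497341-53616970, minus strand), was at 54.2 ± 3.8 CPM in H1975 and 63.3 ± 5.0 CPM in HCC44 (0.23 ± 0.11, adjusted p 0.101), and was called when the 4 DMSO libraries were fitted alone (0.265, adjusted p 0.0341). GCLM, the modifier subunit (chr1:93885205-93909456, minus strand), was at 43.7 ± 0.56 and 46.7 ± 2.5 CPM (0.10 ± 0.14, adjusted p 0.559). SRXN1 (chr20:646615-653370, minus strand), which reactivates over-oxidised peroxiredoxins, was at 5.28 ± 0.57 and 5.44 ± 0.86 CPM with overlapping groups (0.04 ± 0.23). GENCODE 29 places a second gene, AL121758.1, over 2292 of its exon bases, and that name is not listed in the count tables. AKR1B10 (chr7:134527592-134541408, plus strand), a reductase of retinal and lipid aldehydes, was low in both lines at 0.875 ± 0.23 and 1.18 ± 0.01 CPM (0.44 ± 0.31, adjusted p 0.234).

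**Figure D1:**
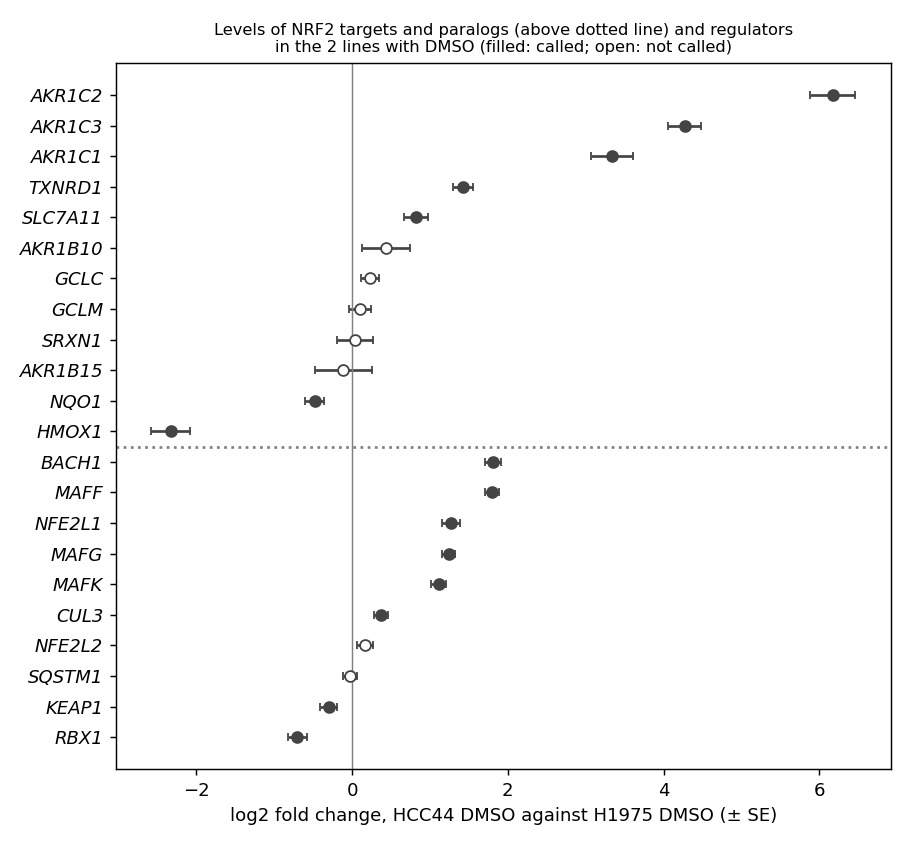
Log2 fold change of HCC44 DMSO against H1975 DMSO (x axis, ± SE) for the 9 targets and 3 paralogs above the dotted line and 10 regulators below it. AKR1C2, AKR1C3 and AKR1C1 lie farthest to the right and HMOX1 farthest to the left at -2.33.

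Per kilobase of merged GENCODE 29 exons, NQO1 had the highest level in H1975 DMSO at 81.2 CPM per kb. TXNRD1 followed at 44.1 and HMOX1 at 41.4 CPM per kb, and their libraries overlapped (41.9 and 46.2 against 44.1 and 38.7). SLC7A11 was at 10.1, GCLM at 8.07, GCLC at 6.27 and SRXN1 at 1.96 CPM per kb, each pair of neighbours apart in both libraries. AKR1B10 at 0.502 and AKR1C1 at 0.293 CPM per kb came last. In HCC44 DMSO the order began with TXNRD1 at 118 CPM per kb, then NQO1 at 58.1 and SLC7A11 at 17.9. GCLM at 8.62, HMOX1 at 8.24 and GCLC at 7.33 CPM per kb followed, and the HMOX1 libraries (9.14 and 7.33) overlapped those of both. AKR1C1 at 2.97, SRXN1 at 2.02 and AKR1B10 at 0.679 CPM per kb ended the order. Merged exons count rare long isoforms, so levels per kb of AKR1C1 (8765 exon bases) are low estimates.

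The next comparisons asked how the targets changed with ACBI1 in each line. In HCC44, 5 of the 9 rose (HMOX1, TXNRD1, SRXN1, NQO1, GCLM) and AKR1B10 fell. In H1975, HMOX1 rose and NQO1, SLC7A11 and AKR1B10 fell. Over all tested genes, 34.9% were called in HCC44 (17.5% risen, 17.4% fallen) and 31.3% in H1975 (14.6% risen, 16.7% fallen). The median log2 fold change of the 9 genes was 0.66 in HCC44 and -0.28 in H1975, where the medians over all tested genes were 0.01 and -0.01. With library totals in place of TMM factors the median of all genes was 0.18 in H1975 and 0.093 in HCC44, and directions are relative to the TMM scale. The share of calls that had risen was 72.3% on that scaling against 46.6% in H1975, and 60.5% against 50% in HCC44. With library totals the median of the 9 genes was -0.08 in H1975, with 1 risen and 2 fallen. In HCC44 it was 0.76, with 6 risen and 1 fallen.

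**Figure D2:**
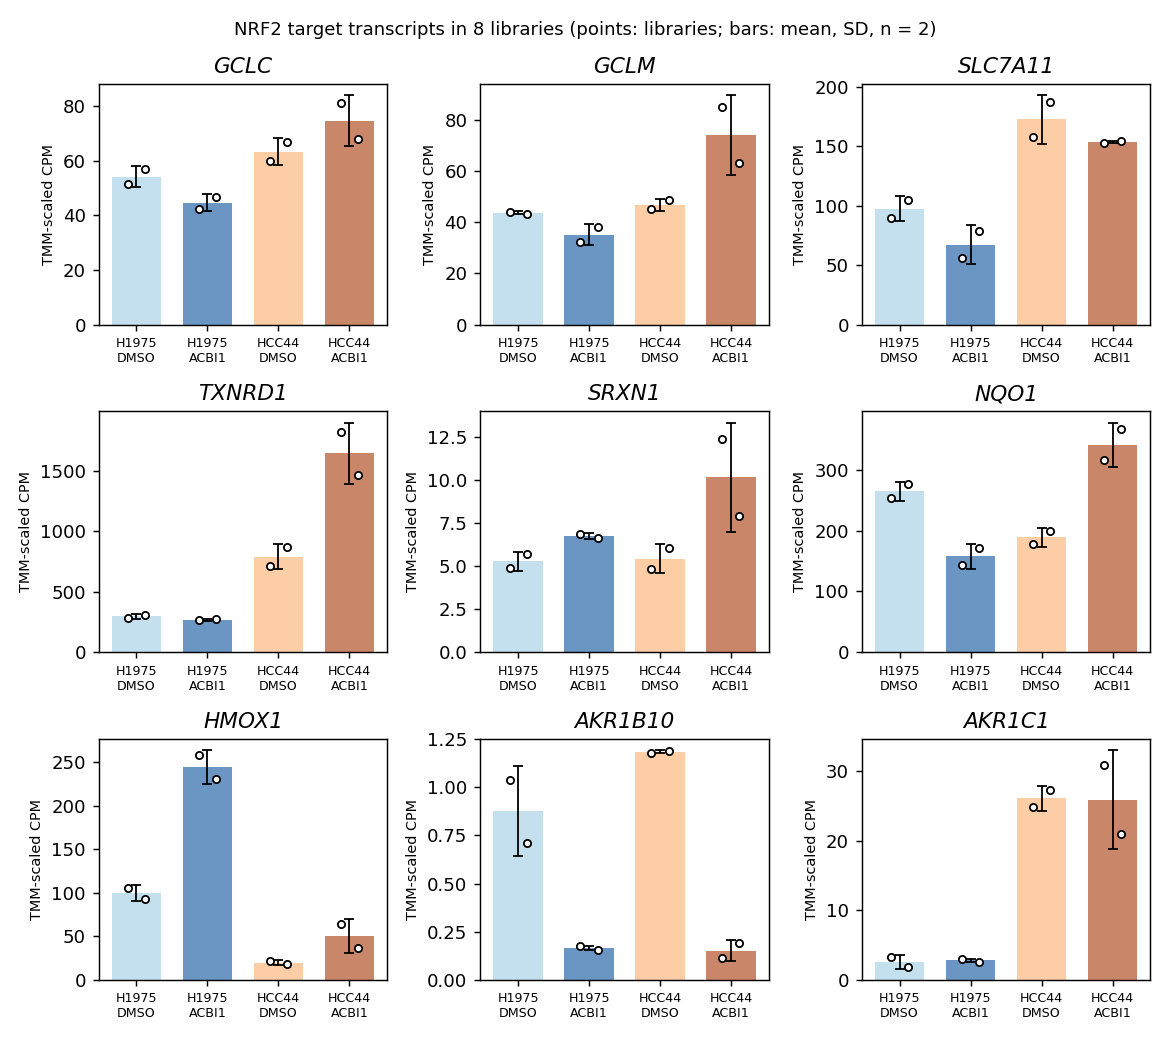
TMM-scaled CPM (y axis, linear from 0) of the 9 genes in the 4 groups, with points for libraries and bars for the mean and SD (n = 2). HMOX1 is higher and AKR1B10 lower with ACBI1 in both lines, and NQO1 moves down in H1975 and up in HCC44.

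Of the glutathione genes, GCLM rose in HCC44 and SLC7A11 fell in H1975. GCLM was at 44.1 and 43.3 CPM with DMSO and 32.3 and 38.1 CPM with ACBI1 in H1975. In HCC44 it was at 45.0 and 48.5 CPM with DMSO and 85.1 and 63.0 CPM with ACBI1. Both ACBI1 libraries lay below DMSO in H1975 and above it in HCC44. The rise in HCC44 was 1.59-fold (0.66 ± 0.14, adjusted p 0.00378), and the H1975 value was -0.31 ± 0.14 (adjusted p 0.113). That value was called without the low-count filter (adjusted p 0.0368) and without either HCC44 ACBI1 library (adjusted p 0.0414 and 0.0394).

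The GCLC values were lower with ACBI1 in H1975 and higher in HCC44. They were at 51.5 and 56.9 CPM with DMSO and 42.4 and 46.9 CPM with ACBI1 in H1975, and at 59.8 and 66.9 against 81.3 and 68.1 CPM in HCC44. Groups did not overlap in either line, yet neither value was called (-0.28 ± 0.11, adjusted p 0.0894, and 0.24 ± 0.11, adjusted p 0.133). In HCC44 it was called with library totals (0.331, adjusted p 0.0416).

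SLC7A11 was at 90.0 and 105 CPM with DMSO and 55.7 and 78.6 CPM with ACBI1 in H1975. It fell to 0.688 of the DMSO level (-0.54 ± 0.15, adjusted p 0.0242). The fall was not called with library totals (-0.337), without DMSO replicate 2 (-0.372) or without ACBI1 replicate 1 (-0.278). In HCC44 it was at 158 and 187 CPM with DMSO and 153 and 154 CPM with ACBI1, which was not called (-0.17 ± 0.15). Its partner SLC3A2, the heavy chain of the importer, fell in HCC44 (561 ± 14 to 405 ± 4.8 CPM, adjusted p 0.00195) and was at 484 ± 44 and 409 ± 11 CPM in H1975 (adjusted p 0.0568).

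TXNRD1, the highest of the 9 per kilobase in HCC44, rose there. It went from 717 and 867 CPM with DMSO to 1825 and 1465 CPM with ACBI1, a fold of 2.08 (1.05 ± 0.12, adjusted p 0.000114). In H1975 it was at 281 and 310 CPM with DMSO and 263 and 275 CPM with ACBI1, where the ACBI1 libraries lay just below (-0.13 ± 0.12, adjusted p 0.441). Thioredoxin itself, TXN, fell in H1975 (207 ± 15 to 158 ± 1.5 CPM, -0.38 ± 0.09, adjusted p 0.00711), a call lost with library totals (-0.18), without DMSO replicate 1 (-0.313) and without either ACBI1 library (-0.358 and -0.35). In HCC44 it was at 215 ± 12 and 192 ± 2.1 CPM (adjusted p 0.168).

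SRXN1 was at 4.83 and 6.05 CPM with DMSO and 12.4 and 7.91 CPM with ACBI1 in HCC44. The ACBI1 libraries were both higher but far apart. It rose 1.86-fold (0.90 ± 0.22, adjusted p 0.00964), and the call was lost without DMSO replicate 1 (0.738, adjusted p 0.0895) or ACBI1 replicate 1 (0.542, adjusted p 0.0834). In H1975 it was at 4.88 and 5.68 against 6.89 and 6.65 CPM (0.36 ± 0.22, adjusted p 0.254).

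NQO1 changed in opposite directions in the lines. In H1975 it was at 253 and 276 CPM with DMSO and 143 and 172 CPM with ACBI1, a fall to 0.595 of the DMSO level (-0.75 ± 0.12, adjusted p 0.000913). In HCC44 it was at 178 and 200 CPM with DMSO and 316 and 367 CPM with ACBI1, a rise of 1.81-fold (0.85 ± 0.12, adjusted p 0.000282). Both calls held under every alternative scaling, test and left-out library.

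By group means HMOX1 rose by nearly the same factor from very different levels. With 1 library left out, its log2 fold change ranged from 0.893 to 1.688 in HCC44 and from 1.249 to 1.397 in H1975. In H1975 it went from 106 and 93.1 CPM to 258 and 231 CPM, a fold of 2.45 (1.30 ± 0.24, adjusted p 0.00549). In HCC44 it went from 22.0 and 17.6 CPM to 63.8 and 36.7 CPM, a fold of 2.54 (1.34 ± 0.24, adjusted p 0.00426). With ACBI1, HCC44 was therefore still below H1975 with DMSO. The H1975 call was lost without DMSO replicate 1 (1.388, adjusted p 0.0516) or DMSO replicate 2 (1.254, adjusted p 0.068). HMOX2, the constitutive haem oxygenase, was at 87.9 ± 2.1 and 88.3 ± 5.1 CPM in H1975 and 41.8 ± 4.1 and 34.2 ± 3.2 CPM in HCC44, and neither value was called. The HCC44 value was called without ACBI1 replicate 1 (-0.388, adjusted p 0.0312).

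AKR1B10 fell in both lines. It had 115 counts with DMSO and 24 with ACBI1 over the H1975 libraries, that is 1.04 and 0.71 against 0.173 and 0.156 CPM. In HCC44 it had 150 and 19 counts, or 1.18 and 1.19 against 0.112 and 0.189 CPM. It fell to 0.19 of the DMSO level in H1975 (-2.40 ± 0.38, adjusted p 0.000969) and to 0.129 in HCC44 (-2.96 ± 0.38, adjusted p 0.000211). Exact 95% intervals of the count ratios, 0.116 to 0.295 and 0.0746 to 0.206, cover counting error only. Its neighbour AKR1B15 shares 9.69% of the 50-base stretches of AKR1B10. AKR1B15 fell in H1975 (1.27 ± 0.023 to 0.237 ± 0.12 CPM, adjusted p 0.00167) and in HCC44 (1.18 ± 0.29 to 0.541 ± 0.23 CPM, adjusted p 0.0434), and the HCC44 call was lost with DESeq2 (-1.126), with library totals (-1.029) and without DMSO replicate 1 (-0.85), DMSO replicate 2 (-1.35) or ACBI1 replicate 2 (-0.739).

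AKR1C1 was called in neither line. Its groups overlapped in H1975 (3.28 and 1.86 against 2.97 and 2.62 CPM, 0.12 ± 0.27) and in HCC44 (24.8 and 27.3 against 30.9 and 20.9 CPM, -0.01 ± 0.24). AKR1C2 was likewise not called in H1975 (0.03 ± 0.41) or HCC44 (0.13 ± 0.19). AKR1C3 fell in H1975 from 2.02 ± 0.68 to 0.322 ± 0.015 CPM (-2.64 ± 0.27, adjusted p 8.11e-05) and in HCC44 from 39.1 ± 4.9 to 22.1 ± 0.87 CPM (-0.82 ± 0.18, adjusted p 0.00478), where it was not called without DMSO replicate 2 (-0.686).

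Whether the lines responded differently was tested as the difference of log2 fold changes, HCC44 minus H1975. It was called for 4 of the 9 genes, NQO1, TXNRD1, GCLM and GCLC, all more positive in HCC44, beside 18.6% of all tested genes (10.2% more positive, 8.4% more negative). With library totals 40.5% of all calls were more positive, against 54.9%. The difference was 1.60 ± 0.16 for NQO1 (adjusted p 0.000205), 1.19 ± 0.17 for TXNRD1 (adjusted p 0.00144) and 0.98 ± 0.20 for GCLM (adjusted p 0.00716). GCLC, at 0.52 ± 0.16 (adjusted p 0.0479), lay at the threshold. Its call was lost with RLE factors (0.481), library totals (0.406) and DESeq2 (0.481), and without H1975 DMSO replicate 1 (0.591) or 2 (0.392), H1975 ACBI1 replicate 1 (0.412) or 2 (0.568), HCC44 DMSO replicate 1 (0.434) or 2 (0.604), or HCC44 ACBI1 replicate 1 (0.386). The differences of SRXN1 (0.54 ± 0.31) and SLC7A11 (0.37 ± 0.22) were not called. Those of HMOX1 (0.05 ± 0.34), AKR1C1 (-0.13 ± 0.36) and AKR1B10 (-0.56 ± 0.56) were not called either and have wide errors. The response and the DMSO comparisons share the DMSO libraries, so their values are given side by side and were not related to each other.

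**Figure D3:**
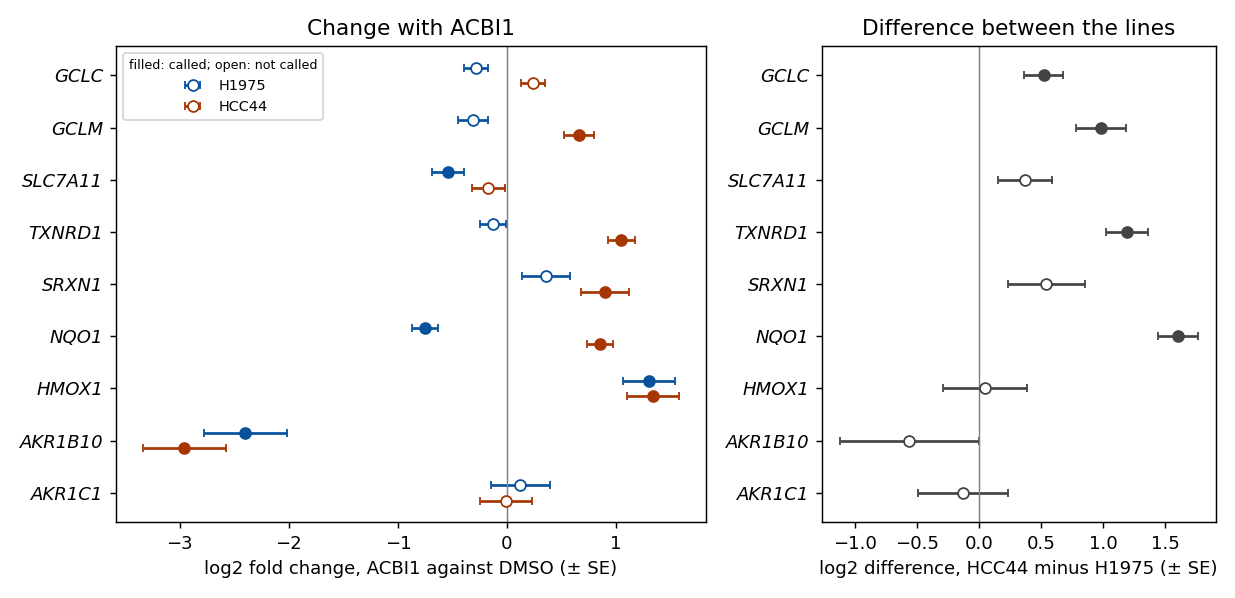
Left, log2 fold change with ACBI1 (x axis, ± SE) in H1975 and HCC44. Right, the difference HCC44 minus H1975 (± SE). Filled points were called. NQO1, TXNRD1, GCLM and GCLC have filled points on the right, from 0.52 to 1.60.

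Of the 10 regulators of the pathway, all tested, 2 rose and 5 fell in HCC44 and 1 rose and 3 fell in H1975, or 2 and 2 with library totals. Among all tested genes 17.5% had risen and 17.4% fallen in HCC44, and 14.6% and 16.7% in H1975. These shares are also the background of the lists below. NFE2L2, which encodes NRF2, was called in neither line. It was at 147 ± 10 and 128 ± 12 CPM in H1975 (-0.20 ± 0.10) and 166 ± 11 and 147 ± 6.6 CPM in HCC44 (-0.17 ± 0.10). KEAP1 was at 108 and 128 CPM with DMSO and 108 and 127 CPM with ACBI1 in H1975 (-0.01 ± 0.11). In HCC44 KEAP1 rose from 95.3 and 96.8 to 150 and 147 CPM (0.63 ± 0.11, adjusted p 0.00114).

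SQSTM1 encodes p62, an autophagy receptor that binds KEAP1 and is also an NRF2 target. It rose in HCC44 from 526 and 617 to 1528 and 1634 CPM (1.47 ± 0.10, adjusted p 3.09e-06). In H1975 it was at 581 and 587 CPM with DMSO and 480 and 494 CPM with ACBI1 (-0.26 ± 0.09, adjusted p 0.0565), which was called without the filter (-0.265) and with H1975 fitted alone (-0.261). BACH1 fell in both lines, in H1975 from 30.9 and 31.6 to 20.5 and 21.9 CPM (-0.56 ± 0.10, adjusted p 0.00166) and in HCC44 from 104 and 116 to 74.6 and 80.2 CPM (-0.50 ± 0.09, adjusted p 0.00196). Whether the falls of BACH1 bear on HMOX1 was not tested.

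Among the small MAF partners, MAFK rose in H1975 (95.8 ± 10 to 123 ± 11 CPM, adjusted p 0.02) and fell in HCC44 (207 ± 1.2 to 131 ± 3.0 CPM, adjusted p 0.000517). The MAFK rise was lost without DMSO replicate 2 (0.297) or ACBI1 replicate 1 (0.295). MAFF fell in HCC44 (176 ± 2.5 to 134 ± 2.2 CPM, adjusted p 0.00546) and was not called in H1975 (0.08 ± 0.09), where library totals called it risen (0.282). MAFG was called in neither line (-0.11 ± 0.08 and -0.16 ± 0.08). In HCC44 CUL3 fell (-0.36 ± 0.09, adjusted p 0.00931), a call lost without DMSO replicate 2 (-0.305) or ACBI1 replicate 2 (-0.29). The H1975 value of CUL3 was not called (-0.25 ± 0.09, adjusted p 0.0511), but was with H1975 fitted alone (-0.253). Its difference between the lines was not called (-0.11 ± 0.13). RBX1 fell in H1975 (-0.37 ± 0.12, adjusted p 0.0332), but was not called with RLE factors (-0.333), library totals (-0.163), without the filter (-0.371) or without any 1 of the 4 H1975 libraries (-0.274 to -0.405).

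NFE2L1, which encodes the related factor NRF1, fell in H1975 from 294 ± 38 to 173 ± 17 CPM (-0.76 ± 0.11, adjusted p 0.000456). In HCC44 it fell from 707 ± 20 to 560 ± 3.9 CPM (-0.34 ± 0.10, adjusted p 0.0288), a call lost with library totals (-0.244) and without DMSO replicate 1 (-0.369), DMSO replicate 2 (-0.304), ACBI1 replicate 1 (-0.34) or ACBI1 replicate 2 (-0.328). With DMSO, 6 of the 10 regulators were called higher in HCC44 (BACH1, MAFF, MAFG, MAFK, NFE2L1 and CUL3) and 2 lower (RBX1 and KEAP1), beside 67.9% of all tested genes called, 31.6% higher and 36.4% lower. The KEAP1 difference (-0.30 ± 0.11, adjusted p 0.0296) was lost with DESeq2 (-0.288), without H1975 DMSO replicate 2 (-0.113) and without HCC44 DMSO replicate 1 (-0.281) or 2 (-0.313).

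Of 11 other NRF2 targets, 5 rose and 1 fell in HCC44, with a median of 0.29. In H1975 1 rose and 5 fell, or 2 and 5 with library totals, with a median of -0.34. For 7 of the 11 the difference between the lines was called, each more positive in HCC44, with a median of 0.88. Over all tested genes 18.6% were called for the difference, 10.2% more positive, with a median of 0.04. With library totals 6 were called, also all more positive. TRIM16L, a ubiquitin ligase relative, fell in H1975 from 38.6 and 46.6 to 21.8 and 27.8 CPM (-0.78 ± 0.13, adjusted p 0.0016). In HCC44 it rose from 57.6 and 66.6 to 184 and 181 CPM (1.56 ± 0.13, adjusted p 1.77e-05). PIR, an iron-binding nuclear protein, rose in both lines, from 5.65 and 5.86 to 15 and 19.2 CPM in H1975 (1.57 ± 0.16, adjusted p 9.25e-05) and from 3.50 and 4.34 to 33.4 and 30.2 CPM in HCC44 (3.02 ± 0.17, adjusted p 1.32e-06). CYP4F11, a fatty acid hydroxylase, was with DMSO at 0.208 ± 0.19 CPM in H1975 and 13.2 ± 1.2 CPM in HCC44 (5.99 ± 0.47, adjusted p 3.06e-06), and its response was called in neither line (-0.26 ± 0.68 and 0.29 ± 0.32). The H1975 DMSO libraries held 22 and 5 counts of CYP4F11, and the difference between the lines was 7.436 without the first and 5.314 without the second.

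Of 8 haem and iron genes, 4 rose and 1 fell in HCC44, and 1 rose and 2 fell in H1975, or 2 and 2 with library totals. FTH1, the heavy chain of the iron store ferritin, fell in H1975 from 4054 and 5041 to 1467 and 1883 CPM (-1.44 ± 0.15, adjusted p 0.000105). In HCC44 FTH1 rose from 1956 and 2264 to 3360 and 3892 CPM (0.78 ± 0.15, adjusted p 0.00229). Ferritin genes have many processed pseudogenes, so their counts are uncertain. SLC48A1, a haem transporter, rose in H1975 (10.1 ± 0.15 to 24.4 ± 0.077 CPM) and in HCC44 (27.9 ± 3.6 to 46.3 ± 0.31 CPM), with adjusted p of 5.16e-05 and 0.000675, and was named after its values were seen.

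Of the other glutathione genes, 9 of 10 were tested, of which 3 rose and 3 fell in HCC44 and 2 rose and 3 fell in H1975, or 2 and 1 with library totals. MGST1, a microsomal glutathione transferase, fell in both, from 158 and 170 to 59.3 and 67.1 CPM in H1975 (-1.37 ± 0.10, adjusted p 1.35e-05) and from 217 and 236 to 94.6 and 106 CPM in HCC44 (-1.17 ± 0.10, adjusted p 1.71e-05). Of 11 thioredoxin system genes, none rose and 3 fell in HCC44, or 1 and 2 with library totals. In H1975 1 rose and 4 fell, where library totals gave 4 risen and 2 fallen. TXNIP, an inhibitor of thioredoxin, was lower in HCC44 DMSO (33.8 and 32.4 CPM) than in H1975 DMSO (946 and 1298 CPM, -5.09 ± 1.01, adjusted p 0.00641), a call lost without H1975 DMSO replicate 2 (-4.787). With ACBI1 TXNIP was at 31.2 and 236 CPM in HCC44 and 635 and 622 CPM in H1975, and neither value was called (2.01 ± 0.89, adjusted p 0.148, and -0.84 ± 0.85, adjusted p 0.514). The HCC44 ACBI1 libraries moved the HCC44 value, and in H1975 they moved the call but hardly the value. In HCC44 the TXNIP value was -0.083 without ACBI1 replicate 2 and was called at 2.837 without replicate 1 and at 2.009 with DESeq2. It was called in H1975 without either HCC44 ACBI1 library (-0.838 for each) or with H1975 fitted alone (-0.836).

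Of 9 carbonyl-reducing genes, 8 were tested, and 3 rose and 4 fell in HCC44 (3 and 2 with library totals) and 3 rose and 3 fell in H1975. SLC7A11 is also a target of ATF4, the factor of the amino acid stress response. Of 8 ATF4-pathway genes 1 rose and 4 fell in H1975, with 1 risen and 2 fallen under library totals, and none rose and 3 fell in HCC44, or 1 and 2 with library totals. Over all 71 tested genes of the 8 lists, 10 rose and 28 fell in H1975, or 16 and 19 with library totals, and 18 rose and 22 fell in HCC44, or 23 and 17 with library totals. The shares over all tested genes, with TMM factors, were 14.6% risen and 16.7% fallen in H1975 and 17.5% and 17.4% in HCC44.

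**Figure D4:**
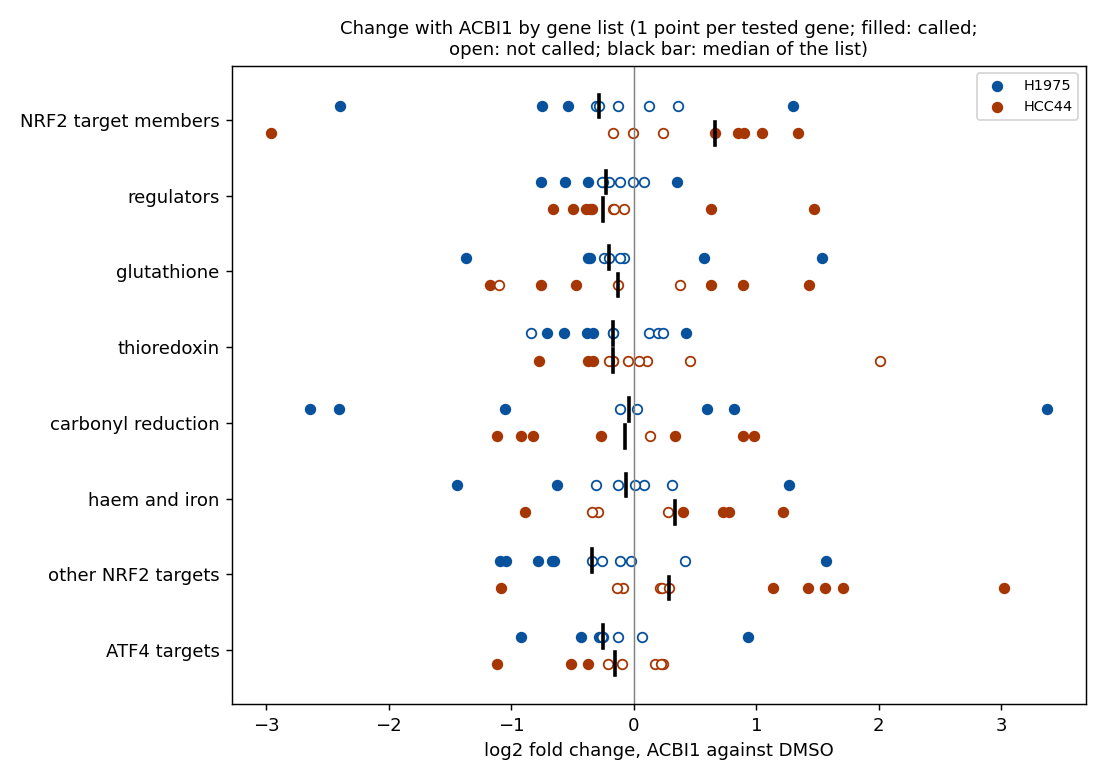
Log2 fold change with ACBI1 (x axis) of each tested gene by list, with H1975 above HCC44 in each row and black bars for list medians. In HCC44 the 9 targets (median 0.66) and the other NRF2 targets (median 0.29) lie to the right of their H1975 medians (-0.28 and -0.34).

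The genes most like the mean of the 9 standardised profiles over the 8 libraries, among tested genes that averaged 5 CPM or more, were TTC19, IFT81, MFSD4B, SGCB and PSMB5, with Pearson r of 0.9814, 0.9797, 0.9782, 0.9765 and 0.9751. The 9 profiles were not alike, and r between pairs of them ranged from -0.94 (SLC7A11 with HMOX1) to 0.94 (GCLM with GCLC). The libraries share line and treatment, so such values describe the order of 4 groups. TTC19 spanned only 41.8 ± 1.2 CPM in H1975 ACBI1 to 56.1 ± 1.2 CPM in HCC44 ACBI1. For single genes the closest were ZBTB1 for NQO1 (0.9718), EFCAB7 for GCLM (0.9791), NHEJ1 for GCLC (0.9821), BIRC2 for TXNRD1 (0.9959) and C2orf68 for SRXN1 (0.9767). They were C3 for SLC7A11 (0.9929), DNAJC14 for HMOX1 (0.9967), BMAL1 for AKR1B10 (0.9883) and PNISR for AKR1C1 (0.9988). BIRC2 was at 42.5 ± 2.6 and 42.0 ± 3.4 CPM in H1975 and at 143 ± 11 and 276 ± 21 CPM in HCC44, with DMSO and ACBI1.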

How the data were processed

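Total RNA of 8 libraries was sequenced. The authors deposited 1 table of read counts per gene for each library, and TopHat2 2.1.1, HTSeq 0.11.0 and build hg38 are named per the submitters' processing notes. The strand setting and annotation are not given in the sources used here, so genes that overlap others are uncertain. Each table lists 61228 genes and 5 summary rows, which held 14.29 to 15.77% of the total (reads of no gene, of several genes or with several alignments) and entered neither library sizes nor tests.

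Counts were filtered with filterByExpr on the 4 groups, scaled with TMM and fitted in edgeR 4.0.16 (R 4.3.3) with 1 mean per group over all 8 libraries, 4 residual degrees of freedom and robust quasi-likelihood. Groups came from the sample titles. Two-sided tests gave ACBI1 against DMSO in each line, HCC44 against H1975 with DMSO, and the difference of responses, with Benjamini-Hochberg adjustment over 21307 genes. The SE was taken as the log2 fold change over the root of F. The procedure was also run on simulated counts with independent libraries, which cannot show how it fares where replicates are not independent. Positions, exon lengths and shared 50-base stretches came from GENCODE 29, in which all 9 genes and all 73 context genes matched, and sequences from RefSeq. Read length is not given in the sources used here. Alternatives were RLE factors, library totals, DESeq2 1.42.0, no filter (at least 1 count), only the groups compared, the replicate number as a block and each library left out. Figures used matplotlib 3.10.9.

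The genes and lists were chosen with earlier results of these data known. Named were the 9 genes, the 10 regulators, 6 paralogs or partners, and the 3 largest called changes among context genes per comparison with at least 5 CPM in a group. Results of 1 of these and its list are not reported here. No pair of replicates looked like copies of 1 library (chi-square over degrees of freedom 24 to 48.4).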

Additional observations from a re-analysis of the deposited data

Results flagged for a closer look

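The difference of the ACBI1 responses, HCC44 minus H1975, was tested in the model itself and called for the genes given here. Of the 9 targets, it was 1.60 for NQO1, 1.19 for TXNRD1, 0.98 for GCLM and 0.52 for GCLC on the log2 scale. The GCLC call was lost with RLE factors, library totals and DESeq2 and without most single libraries, as given above. Among regulators it was 1.73 for SQSTM1 and 0.64 for KEAP1, with -1.02 for MAFK and -0.47 for MAFF. Of other genes it was 2.34 for TRIM16L, 2.22 for FTH1, 1.82 for AKR1C3 and 1.45 for PIR. PIR and AKR1C3 were called with the same sign in both lines, so for these the size of the change differed and not its direction. Leaving out single libraries ended the calls of KEAP1 (0.456 without H1975 DMSO replicate 2, 0.492 without H1975 ACBI1 replicate 1, 0.626 and 0.656 without HCC44 DMSO replicate 1 or 2) and MAFF (-0.461 without H1975 DMSO replicate 2, -0.426 without H1975 ACBI1 replicate 2, -0.462 and -0.483 without HCC44 DMSO replicate 1 or 2, -0.454 without HCC44 ACBI1 replicate 2). Groups of 2 libraries are too small to look for outlying samples.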

How the results depend on the processing

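Of 495 recomputed values of the 9 genes, 471 stayed called or uncalled as before, 17 lost the call and 7 gained it. No called value changed sign. Uncalled values could change sign and are among the 471. AKR1C1 in H1975, for example, ranged from -0.181 to 0.578 with 1 library left out. Of 1210 values of the other named genes 1140 stayed called or uncalled as before, 43 lost the call and 27 gained it. Counts of called genes moved by over 1.5 times in some settings. With the replicate number as a block, 6358 genes were called for the difference between the lines, against 3967 without it. Deviations of same-numbered libraries correlated at 0.374 in H1975 and 0.109 in HCC44, but they share only a number by the labels. With the block GCLC was called in H1975 (-0.278) and SLC7A11 for the difference (0.394), as were NFE2L2 (-0.2), CUL3 (-0.252), SQSTM1 (-0.261) and SLC3A2 (-0.24) in H1975, HMOX2 in HCC44 (-0.29) and for the difference (-0.295), NFE2L1 for the difference (0.426) and SLC3A2 between the lines (0.214), and TXNIP was no longer called between the lines (-4.916). With 1 library left out, counts of called genes ranged from 3690 to 7161 in H1975, 4945 to 7342 in HCC44, 12940 to 14912 between the lines with DMSO and 2341 to 4134 for the difference. Counts of the 9 genes called ranged from 2 to 5 in H1975, 5 to 6 in HCC44 and 3 to 4 for the difference, and stayed at 5 between the lines. The low of 2 came without H1975 DMSO replicate 2, which ended the calls of HMOX1 and SLC7A11. The count for H1975 was 3690 without H1975 ACBI1 replicate 2 and 4342 without H1975 DMSO replicate 1, and that for HCC44 4945 without HCC44 DMSO replicate 2. The count for the difference was 2481 without H1975 ACBI1 replicate 2 and 2341 or 2598 without HCC44 DMSO replicate 1 or 2. A group left with 1 library is assumed to vary like the others. Depth limits AKR1B10, with at most 150 counts over 2 libraries, and AKR1B15, with 11 to 87 counts per library. It also limits AKR1C2 and CYP4F11 in H1975, and AKR1C3 there, with 25 and 22 counts in the ACBI1 libraries. Fitting only the groups compared gives no value for the difference of responses.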
